A study of Mus musculus with 16 samples.

Results

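The PBS-injected hamstring opposite a local myositis was compared here with the muscle of mice that had never received the antigen. The contralateral PBS legs were the 5 right hamstrings of mice m862 to m866, whose left hamstring had been injected with HRS, and the PBS-only group was the 4 hamstrings, right and left, of mice m867 and m868. These 9 libraries were all those that the treatment label called contralateral PBS or PBS only, out of 16 in the series. The remaining libraries were the 5 HRS legs of the same mice and 2 libraries of mice m860 and m861. Titles of the latter name an ma-MBP fusion protein, read here as HRS-MBP. All mice were female C57BL/6 aged 8 to 10 weeks, with no other genotype or agent given, and muscle was collected on day 14. HRS is recombinant histidyl-tRNA synthetase, the Jo-1 autoantigen, of which the protocol gives 100 µL at 3 to 5 mg/mL. The general protocol describes injection of both hamstrings, whereas the titles place an injection called ma in the left leg and PBS in the right leg of m862 to m866. The titles were followed, with ma read as HRS. As a model, the PBS-only group is limited to 2 mice, and every contralateral leg was a right leg.

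Injection of HRS is a way to raise an immune response to a self protein within muscle. An inflamed muscle releases interferons, chemokines and acute-phase signals into the blood, and stress hormones such as glucocorticoids reach all muscles alike, so another muscle of the same animal can carry traces of either. The interferon-γ targets (CXCL9 and the guanylate-binding proteins), the type I interferon targets (MX1, ISG15, the IFIT genes) and the glucocorticoid targets (FKBP5) are common readouts of such signals, while the NR4A receptors and FOS proteins are short-lived transcription factors that respond to exercise, handling and cAMP.

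Hamstring poly(A) RNA was measured as normalized counts per gene. In the contralateral legs the library depth implied by the worth of 1 read was 24700000 to 72800000 reads, and in the PBS-only legs it was 8600000 to 40700000, with the right leg of m868 the shallowest. All 9 libraries held the fast fibre transcripts of hamstring at high level: the myosin Myh4 lay between 38952 and 77996 normalized counts. As in females, Xist was never below 92.9 in the 16 libraries, and Eif2s3y, a Y-linked gene, never above 0.364. The Pearson correlation of log2 values across 16414 genes was 0.9639 to 0.9907 between the groups (20 pairs), 0.9645 to 0.9911 among contralateral legs (10 pairs) and 0.9884 and 0.9798 between the legs of m867 and of m868, with genes not being independent replicates. Of 12682 genes with a mean of at least 2, a median of 2.6% differed over 2-fold in a pair of libraries from different groups, 2.59% in a pair of contralateral legs, and 1.82% and 2.24% between the legs of m867 and of m868. A contralateral leg therefore lay about as far from a PBS-only leg as from another contralateral leg.

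A pair of contralateral legs stood apart. The leg of m866 carried more fat transcripts: the adipokine Adipoq was at 344 normalized counts there, 21.6 to 51.1 in the other contralateral legs and 26.4 to 63.9 in the PBS-only legs, and the desaturase Scd1 was at 2970 against 229 to 504 in the other contralateral legs and 354 to 652 in the PBS-only legs. Its fast fibre genes were also the lowest, at a mean log2 level of 12.70 against 13.30 to 13.35 in the other contralateral legs. The leg of m864 carried skin keratins, with Krt5 at 24.6, Krt14 at 18.8 and Krt10 at 59.1, where no other contralateral leg exceeded 2.92, 2.29 and 3.08. Some results are given also without these legs. In bulk muscle, fewer cells of a type and less RNA per cell cannot be told apart.

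The first question was whether any gene of the contralateral leg differed from the PBS-only mice. By the test, none did. With the animal as the replicate (5 contralateral legs against 2 PBS-only mice, legs of a mouse averaged), limma called 0 of 16414 genes (0%) at an adjusted p below 0.05 and a log2 fold change beyond 1 in either direction, and 0 with no fold threshold. Limma-voom also called 0. The smallest Benjamini-Hochberg adjusted p from limma was 0.999. At an unadjusted p below 0.05, 643 genes lay on either side, 518 higher in the contralateral legs (3.16%) and 125 lower (0.762%). The values of all 5 contralateral legs lay above all 4 PBS-only legs for 378 genes (2.3%) and below them for 45 (0.274%). This preponderance of higher genes came with a median log2 fold change of 0.07 over all genes and was lost with other scalings, which gave 291 higher and 351 lower after quantile normalization and 276 higher and 284 lower after median ratio scaling. For 14451 genes (88%) the 95% interval of the log2 fold change lay inside −1 to 1, which is written below as inside 2-fold. This holds on the log2(value + 0.5) scale, where a gene of low level can lie inside it with a larger ratio of its levels, and with a smaller added value than 0.5 the count was 12465. Leaving out the fat-rich leg of m866 raised the count at an unadjusted p below 0.05 to 1244, and leaving out PBS-only mouse m868 lowered it to 260, with 0 genes called in either case.

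**Figure D1:**
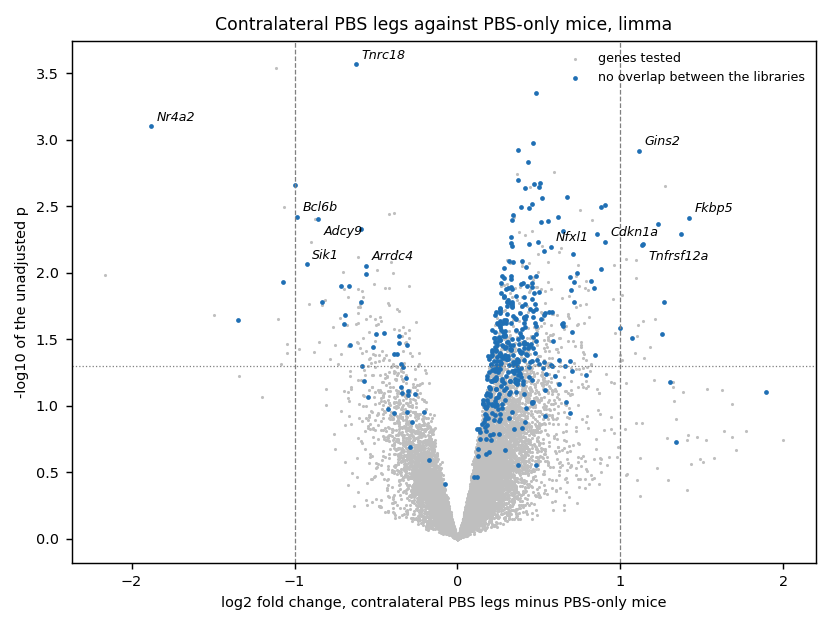
Each point is 1 of 16414 genes, with the log2 fold change of the contralateral PBS legs over the PBS-only mice on the x axis and −log10 of the unadjusted limma p on the y axis. Dashed lines mark 2-fold and the dotted line an unadjusted p of 0.05, blue points are the 378 and 45 genes whose libraries did not overlap, and Nr4a2 lies apart at −1.88, although no gene passed adjustment.

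The lower gene with the largest fold change among those with separate groups was Nr4a2 (Nurr1), an orphan nuclear receptor induced rapidly by cAMP and activity. It is at chr2:57106830-57124003 on the minus strand (GRCm38). In the contralateral legs it was at 0.897, 1.38, 2.12, 1.71 and 3.50 normalized counts in m862 to m866, and in the PBS-only legs at 9.12 and 8.05 (m867) and 7.28 and 7.24 (m868). The highest contralateral leg (m866) thus lay below the lowest PBS-only leg with a wide gap, 3.50 against 7.24, and the legs of a PBS-only mouse lay close together. These values rested on about 28 to 130 reads in each contralateral leg and 60 to 321 in each PBS-only leg. Here and below, read numbers of a gene are its values divided by the worth of 1 read and rounded, and are estimates. The log2 fold change was −1.88 (SE 0.36, 95% interval −2.72 to −1.05, unadjusted p = 0.00079, adjusted p = 0.999 by limma). It lay between −2.10 and −1.37 under all alternatives tried, whose adjusted p ran from 0.035 to 1, and −2.09 without m866. Nr4a2 had been known from an earlier look at these data, so its value here is a description.

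The HRS legs of the same mice had Nr4a2 at 2.16 to 4.14 and the HRS-MBP libraries at 2.76 and 2.99. All libraries from mice that had received HRS or HRS-MBP therefore lay below all 4 libraries from mice that had not. Which library was run on which of the 3 sequencing instruments named in the labels is not given, so a difference between the 2 PBS-only mice and the others in handling, day or sequencing cannot be told apart from the treatment.

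**Figure D2:**
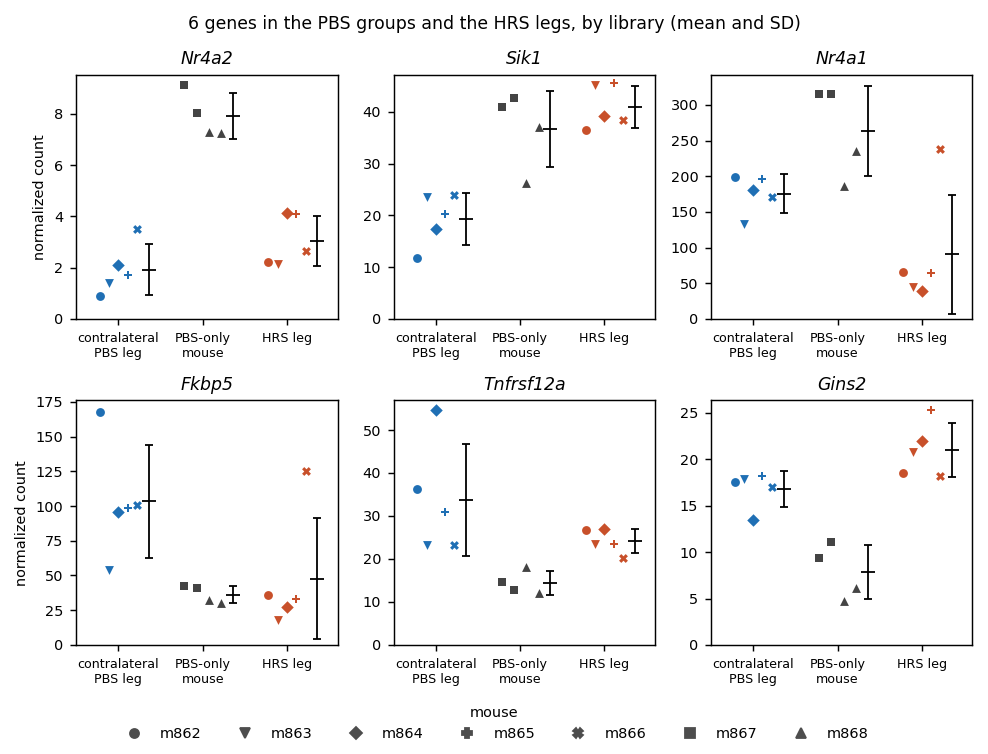
Normalized counts (y axis, from 0) of 6 genes in each library of the contralateral PBS legs (blue), the PBS-only mice (grey) and the HRS legs (orange), with a symbol per mouse and the mean and SD beside the points. Nr4a2, Sik1 and Nr4a1 are lower in the contralateral legs than in the PBS-only mice on average and Fkbp5, Tnfrsf12a and Gins2 higher, and for all but Nr4a1 the 2 PBS groups do not overlap.

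Around Nr4a2, the list of immediate early and NR4A genes had 29 of its 31 members tested, of which 4 were lower and 1 higher at an unadjusted p below 0.05, against 0.762% and 3.16% of all genes. Its median log2 fold change was −0.18, against 0.07 over all genes tested, and it was −0.04 without m862 and −0.06 without m867. The members lower were Nr4a2, its paralog Nr4a1 and the AP-1 subunits Fosb and Fosl2. Nr4a1 (Nur77), an orphan receptor induced in working muscle, was at 199, 133, 181, 196 and 171 in the contralateral legs of m862 to m866 and at 315, 316, 187 and 236 in the PBS-only legs (m867 right and left, m868 right and left). The right leg of m868 thus overlapped the contralateral legs, and the log2 fold change was −0.56 (SE 0.20, unadjusted p = 0.022, not past adjustment). For Nr4a1 it was −0.86 against m867 alone and −0.27 against m868 alone. Fosb was at 0.737 to 1.62 against 1.5 to 3.11 (log2 fold change −0.72, SE 0.25), and Fosl2 at 17.7 to 32.7 against 26.9 to 46.5 (−0.61, SE 0.21), with overlapping groups in both. The member higher was Ier5, at 16.2 to 18.3 against 11.1 to 18.6 (0.35, SE 0.11). The best known members overlapped between the groups: Fos was at 5.70 to 29.6 against 15.8 to 28.9, Jun at 101 to 199 against 132 to 201, Egr1 at 8.30 to 25.3 against 9.10 to 18.4, and the third receptor, Nr4a3, at 5.55 to 10.7 against 4.73 to 8.08. Without m866, 8 members were lower and 1 higher at an unadjusted p below 0.05, where 206 of all 16414 genes were lower and 1038 higher.

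The promoters of Nr4a2 and Nr4a1 are shown because these paralogs were the lower members with the most matches to the letters TGACG, a short sequence that cAMP-responsive factors bind. The windows are the 250 bases before the RefSeq start in GRCm38.p6, at chr2:57124004-57124253 (minus strand) and chr15:101266596-101266845 (plus strand), read 5′ to 3′ along the gene, with matches on either strand in capitals (TGACG, or CGTCA for the other strand).
Nr4a2: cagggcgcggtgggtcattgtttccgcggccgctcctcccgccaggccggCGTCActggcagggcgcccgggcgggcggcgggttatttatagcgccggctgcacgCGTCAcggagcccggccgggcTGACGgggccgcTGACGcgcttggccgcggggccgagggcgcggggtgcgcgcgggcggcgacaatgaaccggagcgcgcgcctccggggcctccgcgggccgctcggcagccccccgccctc
Nr4a1: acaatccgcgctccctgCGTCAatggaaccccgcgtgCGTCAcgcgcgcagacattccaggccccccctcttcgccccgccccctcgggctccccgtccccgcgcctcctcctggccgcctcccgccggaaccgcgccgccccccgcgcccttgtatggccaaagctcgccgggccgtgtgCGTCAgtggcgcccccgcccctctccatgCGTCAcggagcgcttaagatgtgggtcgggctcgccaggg
Each window held 4 matches, the nearest beginning 111 bases before the start in Nr4a2 and 40 bases before it in Nr4a1. Of 14509 such windows of genes tested, 24.8% held at least 1 match and 0.276% held 4 or more. These windows are printed because of their matches, so nothing is read from that share. The window of Fosb held 1 match and that of Fosl2 held 0. A match is a description of the letters and not a measured site.

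By the rule for the largest differences (a mean of at least 2, an unadjusted p below 0.01 and no overlap between the libraries of the groups), 6 genes were lower and 35 higher in the contralateral legs. They were chosen by their values, and none passed adjustment. After Nr4a2, the lower genes were Bcl6b, Sik1, Adcy9, Tnrc18 and Arrdc4. Sik1 (chr17:31844250-31855804), a kinase that is itself induced by cAMP and restrains cAMP-driven transcription, was at 11.8, 23.5, 17.4, 20.3 and 23.9 in m862 to m866 and at 41.0, 42.6, 26.2 and 37.0 in the PBS-only legs (log2 fold change −0.92, SE 0.27). The HRS legs had Sik1 at 36.5 to 45.5, in the upper range of the PBS-only legs or above it. In the HRS-MBP libraries it was at 56.3 and 77.6, above all PBS-only legs. Adcy9, an adenylyl cyclase that makes cAMP, was at 9.21 to 16.4 against 21.2 to 29.4 (−0.86, SE 0.22). Bcl6b, a transcriptional repressor of the BCL6 family, was at 6.12 to 11.9 against 13.8 to 20.8 (−0.98, SE 0.25). Arrdc4, an arrestin-domain protein that limits glucose uptake, was at 8.03 to 11.8 against 11.9 to 16 (−0.56, SE 0.16). Tnrc18 had the smallest p of the 6 (unadjusted p = 0.00027, log2 fold change −0.62, SE 0.10), with 39.0 to 45.8 in the contralateral legs. Its PBS-only legs were at 76.4 and 45.9 in m867 and 55.0 and 87.2 in m868, so that the legs of 1 mouse differed by more than the groups' nearest libraries.

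Among the higher genes the largest was Fkbp5 (chr17:28399094-28517527), a cochaperone of the glucocorticoid receptor and one of its most responsive targets. Its level was 168, 54.1, 95.6, 98.5 and 101 in the contralateral legs of m862 to m866 and 42.1, 40.8, 32.3 and 29.9 in the PBS-only legs. All contralateral legs were above all PBS-only legs, with m863 nearest to them. The log2 fold change was 1.42 (SE 0.36, 95% interval 0.60 to 2.24, unadjusted p = 0.0038, adjusted p = 0.999 by limma). Under the 23 alternatives not added after the data were seen, it lay between 1.22 and 1.63, with adjusted p from 0.644 to 1. In the HRS legs of these mice Fkbp5 was at 35.7, 17.9, 27.0, 32.9 and 125, so that in 4 of 5 mice the HRS leg lay below the highest PBS-only leg while the opposite leg lay above it. In m866 both legs were high.

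In the glucocorticoid-responsive list, 2 of 18 genes tested were higher (Fkbp5, Cdkn1a) and 1 lower (Sgk1) at an unadjusted p below 0.05, against 3.16% and 0.762% of all genes. The log2 fold change was above 0 for 14 of the 18, with a median of 0.18, and for 10755 of all 16414 genes. The median was 0.03 against m867 alone, 0.33 against m868 alone and 0.32 without m862. Cdkn1a, the cell cycle inhibitor p21, was at 43.8 to 91.8 against 28.9 to 35.2 with no overlap (0.91, SE 0.24) and at 66.8 to 257 in the HRS legs. Sgk1, a kinase named for its induction by glucocorticoids and serum, was at 63.8 to 107 against 103 to 148, on the opposite side to Fkbp5 (−0.61, SE 0.21). Tsc22d3 (GILZ), another direct glucocorticoid target, overlapped at 154 to 190 against 179 to 209, and so did the stress gene Ddit4 at 5.8 to 15.5 against 5.94 to 8.41. The metallothionein Mt2 was at 3.39 to 11.1 against 2.54 to 4.49, with overlap.

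Tnfrsf12a (Fn14), the receptor of the cytokine TWEAK that appears in denervated and damaged muscle, was at 36.4, 23.2, 54.7, 30.9 and 23.3 in the contralateral legs and at 14.7, 12.7, 18.1 and 12.1 in the PBS-only legs (1.14, SE 0.31). The HRS legs had Tnfrsf12a at 20.2 to 27, within or below the contralateral range. In the HRS-MBP libraries it was at 14.3 and 7.47, within or below the PBS-only range. Gins2, a subunit of the replicative helicase, was at 17.5, 17.9, 13.4, 18.2 and 17.0 against 9.42, 11.1, 4.69 and 6.17 (1.12, SE 0.23, and 0.68 against m867 alone or 1.55 against m868 alone), with 18.2 to 25.3 in the HRS legs and 22.8 and 27.2 in the HRS-MBP libraries. As with Nr4a2, all libraries of mice given HRS or HRS-MBP lay on 1 side of the 4 PBS-only libraries. Other replication and proliferation genes did not pass the test: of 12 cell cycle genes tested, 0 passed an unadjusted p of 0.05 in either direction (median log2 fold change 0.07, and −0.02 to 0.19 with 1 mouse left out, below 0 without m866 or m868), and the proliferation marker Mki67 was at 0.5 to 3.37 against 1.19 to 2.06. Among the 10 largest of the 35 higher genes were also Nfxl1 (0.57, SE 0.16), the noncoding 2410006H16Rik (0.67, SE 0.16) and 4 processed pseudogenes, Rbm3-ps, Rab7-ps1, Rpl7-ps7 and Rpl18-ps2, with log2 fold changes of 0.85, 0.62, 0.55 and 0.52. Pseudogenes can take reads of their parent genes, and their own values are uncertain.

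Interferon-γ is made by T and NK cells and drives MHC and chemokine genes in inflamed muscle. In the contralateral leg no type II interferon-induced gene differed from the PBS-only mice by the test. Of 26 genes tested, 0 were higher and 0 lower at an unadjusted p below 0.05, the median log2 fold change was −0.10, and no gene had separate groups. The median was 0.79 against m867 alone, −0.95 against m868 alone and −0.32 without m864. The 2 PBS-only mice themselves differed. The mean log2 level of the list was 2.72 and 2.64 in the legs of m867 and 4.44 and 4.42 in the legs of m868, and 3.48, 3.01, 4.17, 2.90 and 3.72 in the contralateral legs of m862 to m866. All 5 contralateral legs thus lay between the PBS-only mice. Both legs of m868 were above both legs of m867 for 26 of 26 genes, against 10.0% of all genes tested. The HRS legs, at 5.47 to 7.6, were above all 9 PBS libraries.

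Single genes varied as widely. The chemokine Cxcl9 was at 2.98, 1.70, 11.9, 2.85 and 9.02 in the contralateral legs of m862 to m866, at 3.15 and 3.92 in m867 and at 10.1 and 8.28 in m868, with 80.2 to 734 in the HRS legs. The GTPase Gbp2 was at 21, 12.6, 40.7, 13.7 and 25.3, against 10.5 and 10.6 in m867 and 58.0 and 49.7 in m868. For Gbp2 the log2 fold change was −0.21 with a 95% interval of −1.65 to 1.23, and it was 0.94 against m867 alone. The chemokine Cxcl10 was at 0.511 to 2.36 against 0.625 to 3.28 (−0.39, interval −1.55 to 0.78). For only 7 of the 26 genes did the interval lie inside 2-fold, compared with 88% of all genes, so for most of this list a 2-fold difference in at least 1 direction remained within the interval.

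The order of the 5 HRS-injected mice was the same in both legs for this list. From highest to lowest it was m864, m866, m862, m863 and m865, with levels of 7.6, 6.93, 6.59, 5.89 and 5.47 in the HRS legs and 4.17, 3.72, 3.48, 3.01 and 2.90 in the contralateral legs. It was the only one of 37 lists with the same order in both legs, and it was noticed after the values had been seen. No correlation was computed over 5 mice. Of its 26 genes, 2 had the same order of mice in both legs. Within the list, 21 of 26 genes were highest in the contralateral leg of m864 and 19 of 26 in the HRS leg of m864. The immunoglobulin transcripts did not keep this order: Igkc was at 328, 69.1, 119, 132 and 165 in the HRS legs of m862 to m866 and at 0.897, 3.33, 17.0, 5.06 and 2.91 in the contralateral legs, so that the mouse with the highest HRS leg had the lowest opposite leg. PBS-only mouse m868 had a higher level of the type II list than any contralateral leg.

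**Figure D3:**
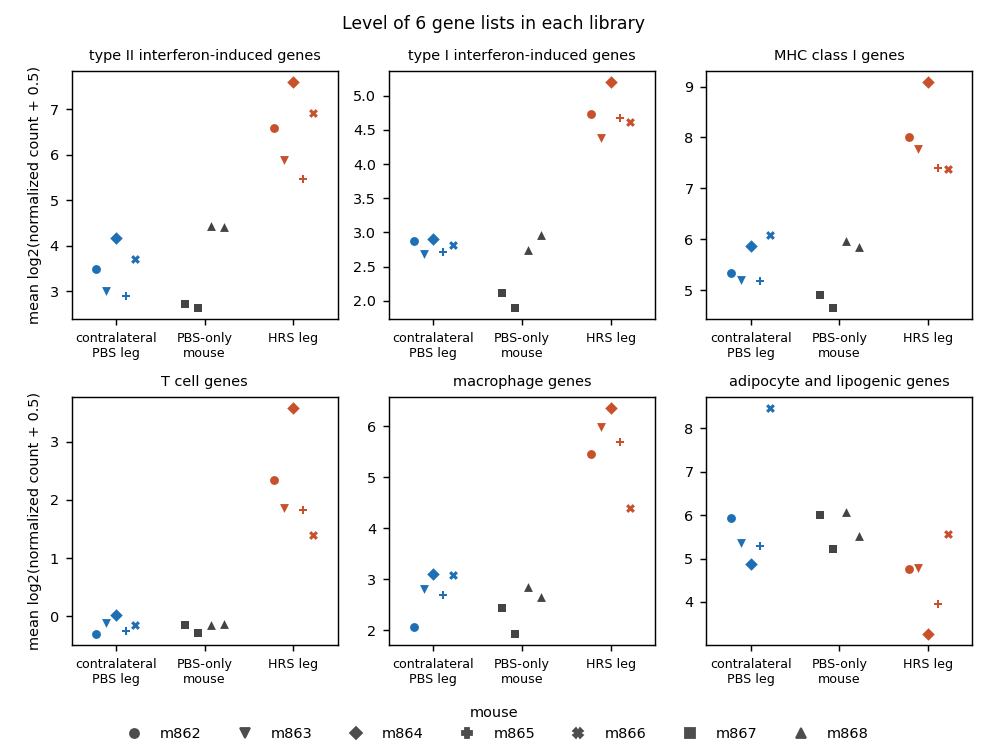
Mean log2(normalized count + 0.5) of 6 gene lists (y axis, a scale of its own in each panel) in the contralateral PBS legs (blue), the PBS-only mice (grey) and the HRS legs (orange), with a symbol per mouse. For the type II interferon list the legs of m868, at 4.42 and 4.44, lie above and those of m867, at 2.64 and 2.72, below all 5 contralateral legs, and for T cell genes the contralateral and PBS-only legs lie together far below the HRS legs.

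The type I interferon-induced list was the immune list with the most genes of small unadjusted p. Of 26 genes tested, 4 were higher and 0 lower (3.16% and 0.762% of all genes), and the median log2 fold change was 0.36. The list's level was 2.88, 2.68, 2.90, 2.71 and 2.82 in the contralateral legs, 2.11 and 1.90 in m867, and 2.74 and 2.96 in m868. The contralateral legs therefore lay together with m868 and above m867, and the median was 0.92 against m867 alone and −0.15 against m868 alone. Without m864, 2 genes were higher at an unadjusted p below 0.05. Mx1, an antiviral GTPase, had the smallest p: it was at 2.53, 1.60, 2.59, 1.44 and 1.05 against 0.568, 0.202, 0.243 and 1.76, or 39 to 97 reads against 2 to 27, with only the left leg of m868 inside the contralateral range (1.09, SE 0.31, unadjusted p = 0.0080, not past adjustment). Ifit1, which binds viral RNA, was at 6.11 to 10.4 against 3.92 to 7.36 (0.57, SE 0.25), Isg15 at 3.04 to 4.23 against 1.39 to 4 (0.38, SE 0.28) and Irf7, the factor that amplifies the response, at 14.0 to 18.5 against 5.86 to 21.6 (0.49, SE 0.33). With m867 left out, Isg15 and Irf7 changed sign, to −0.15 and −0.25, and Ifit1 was at 0.22.

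No T cell gene of the contralateral leg differed from the PBS-only mice by the test. Of 19 T cell genes tested, 0 were higher and 0 lower at an unadjusted p below 0.05, the median log2 fold change was 0.01 (−0.05 to 0.08 with 1 mouse left out), and 16 had an interval inside 2-fold. Cd3e, a subunit of the T cell receptor complex, was at 0.539 to 1.02 in the contralateral legs, 0.243 to 0.881 in the PBS-only legs and 2.37 to 12.5 in the HRS legs. Cd4 was at 0.449 to 0.878 against 0.243 to 1.09, and Cd8a at 0 to 0.277 against 0 to 0.114, with 1.46 to 14.0 in the HRS legs. Cd3e and Cd8a lay above both PBS-only mice in 4 of 5 contralateral legs, and Cd4 in 1 of 5. In the shallow right leg of m868, Cd3e rested on about 2 reads. At such levels the added 0.5 holds fold changes near 1, and the values themselves say more: Cd8a rested on 0 to 11 reads in each contralateral leg.

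Genes of resident memory T cells, which remain in a tissue after an infection or injury, were equally low. Of 10 tested, 0 passed an unadjusted p of 0.05 in either direction, and all 10 had an interval inside 2-fold. For members below the added 0.5, such as Cd69, that can hold with a larger ratio of their levels, so it does not show them unchanged. Cd69, a retention marker, was at 0.0269 to 0.369 against 0 to 0.0652 and at 1.68 to 7.45 in the HRS legs. Cxcr6, a homing receptor, was at 0.0588 to 0.323 against 0 to 0.202, and the integrin Itgae at 0.160 to 0.404 against 0.121 to 0.485. Prdm1, a regulator of residency, was at 0.417 to 1.37 against 0.607 to 1.24. Ifng itself had 0 reads in all 5 contralateral legs, where a count of 0 allows up to 0.0494 to 0.139 normalized counts by a floor of 3 reads per library (counting error only), and 0.349 to 5.30 in the HRS legs. In the PBS-only legs it rested on 1 read in m867 and 2 in m868.

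Of 11 NK and cytotoxic genes and 18 B and plasma cell genes tested, 0 passed an unadjusted p of 0.05. Without m864, 1 B and plasma cell gene was lower, where 121 of all 16414 genes were. Gzma was at 0.128 to 0.512 against 0.196 to 0.607, the NK receptor Ncr1 at 0.115 to 0.323 against 0 to 0.326, and the B cell receptor subunit Cd79a at 0.215 to 0.693 against 0 to 0.364. The κ light chain Igkc, a product of plasma cells, was at 17.0 in the contralateral leg of m864 and at 0.897 to 5.06 in the others, against 1.05 to 2.59 in the PBS-only legs (0.92, SE 0.79, and 0.43 without m864). The m864 leg also had the highest level of the whole B and plasma cell list, 0.91 against −0.09 to 0.12, and it is the leg with keratin transcripts. Their part in this value was not tested.

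**Figure D4:**
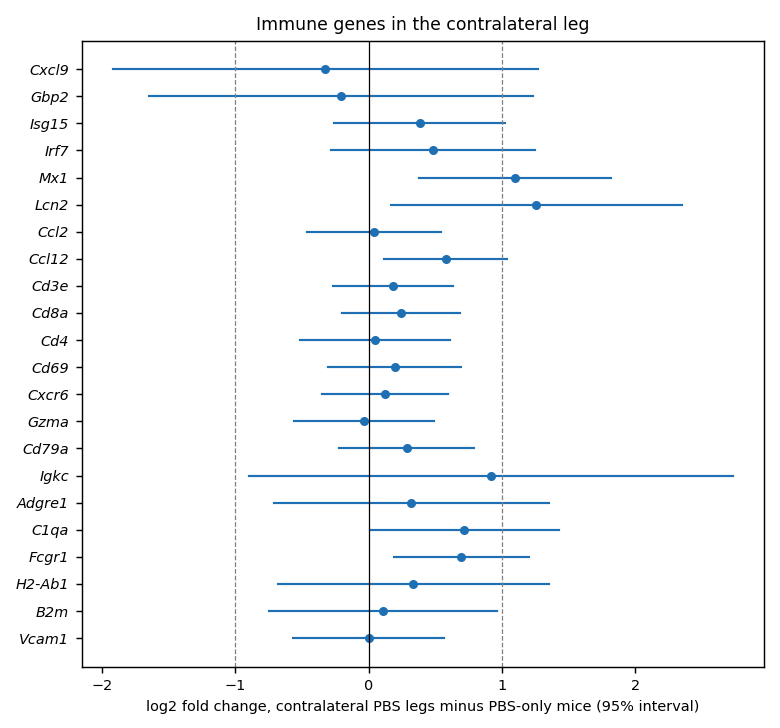
Log2 fold change (x axis) of the contralateral PBS legs over the PBS-only mice for immune genes named in the text, with 95% intervals from limma. Dashed lines mark 2-fold, and the intervals of Cd3e, Cd8a, Cd4, Cd69 and Cxcr6 lie inside them while those of Cxcl9 and Gbp2 extend past 2-fold on both sides. Cd8a, Cd69 and Cxcr6 were below the added 0.5 in all 9 PBS libraries, which narrows their intervals, so a larger ratio of their levels is not excluded.

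Macrophage genes had mostly positive log2 fold changes (23 of 27, against 10755 of all 16414 genes), and none passed adjustment. Of 27 tested, 2 were higher and 0 lower at an unadjusted p below 0.05, against 3.16% and 0.762% of all genes, and the median log2 fold change was 0.24. Fcgr1, the high-affinity IgG receptor, was at 2.21 to 3.19 against 0.890 to 2.06 with no overlap (0.69, SE 0.22), and the complement subunit C1qa at 20.3 to 44.8 against 12.3 to 25.0 (0.72, SE 0.31). Against m867 alone Fcgr1 was 1.02 and C1qa also 1.02 on the log2 fold change scale, and against m868 alone they were 0.37 and 0.42. Without m866, C1qa had an unadjusted p of 0.077, and 1 gene of the list was higher without m864 and 1 without m866. Adgre1 (F4/80), Cd68 and the mannose receptor Mrc1 overlapped, at 4.65 to 16.7 against 5.66 to 14.1, 2.63 to 8.62 against 1.98 to 7.76, and 15.7 to 41.1 against 15.7 to 32.1. The list's median was 0.03 against m868 alone and 0.61 against m867 alone. The lists of neutrophil genes (10 tested, median 0.02, and −0.08 to 0.14 with 1 mouse left out), dendritic cell genes (11, −0.08, and −0.18 to −0.02), MHC class II genes (8, 0.17) and MHC class I genes (11, 0.20) had 0 genes at an unadjusted p below 0.05. The MHC medians had opposite signs against either mouse, 0.72 and 0.79 for class II and class I against m867 alone and −0.38 and −0.31 against m868 alone. The class II median was 0.03 without m864 and the class I median 0.05 without m866. The MHC class II gene H2-Ab1 ran from 23.7 to 76.6 against 20.7 to 64.4, H2-K1 from 138 to 341 against 97.3 to 223, and B2m from 117 to 282 against 95.2 to 215.

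Acute-phase genes are made mainly in liver, but Lcn2, Hp and Serpina3n also respond in muscle and fat. Of 13 tested, 1 was higher at an unadjusted p below 0.05 and 0 lower, against 3.16% and 0.762% of all genes. This was Lcn2 (lipocalin 2), at 0.673, 3.16, 1.34, 0.559 and 1.91 in the contralateral legs and 0.369, 0.526, 0 and 0.261 in the PBS-only legs, or 19 to 192 reads against 0 to 13. The groups did not overlap, the log2 fold change was 1.26 (SE 0.47, 95% interval 0.17 to 2.35), and the HRS legs were at 2.71 to 17.1. Haptoglobin (Hp) was at 17.8 to 112 against 12 to 29.5 and Serpina3n at 3.36 to 25.4 against 1.74 to 8.49, both highest of the 9 libraries in the fat-rich leg of m866. Saa3, at 87.6 to 1222 in the HRS legs, was at 0.725 to 14.2 against 1.99 to 7.28. Among 24 cytokine and receptor genes tested, only the interleukin-6 receptor Il6ra passed an unadjusted p of 0.05, a share near the 3.16% of all genes, at 11.6 to 19.7 against 8.28 to 11.8 (0.55, SE 0.21). Among 20 chemokines, 2 were higher (1 without m864 and 1 without m866), against the same 3.16%, of which Ccl12 was at 0.350 to 0.706 against 0.0404 to 0.261 (13 to 24 reads against 1 to 7). Ccl2 and Ccl5 overlapped at 0.659 to 1.35 against 0.587 to 1.46 and 0.417 to 3.00 against 0.483 to 1.94. The member with the largest log2 fold change, Cxcl13, did not pass an unadjusted p of 0.05 and was at 0.865 to 4.66 against 0.121 to 0.978, with overlap. Endothelial genes, among them Pecam1 at 78.7 to 104 against 82.1 to 93.2 and the adhesion molecule Vcam1 at 4.04 to 7.86 against 4.77 to 7.11, had an interval inside 2-fold for 14 of 14 genes tested.

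No gene of muscle fibre type or regeneration differed by the test. Of 12 fast fibre genes, 9 slow fibre genes and 14 satellite cell and regeneration genes tested, 0 passed an unadjusted p of 0.05, and the interval lay inside 2-fold for 7, 1 and 7 of them. Without m866, 2 satellite cell and regeneration genes were lower, where 206 of all 16414 genes were. Slow fibre genes had a median log2 fold change of 0.50, which was 0.18 without m864 and 0.84 without m862, and varied between legs: the slow myosin Myh7 was at 283, 1098, 2322, 1254 and 484 in m862 to m866 and at 541 to 965 in the PBS-only legs. Embryonic myosin Myh3, which reappears in regenerating fibres, was at 5.57 to 35.9 against 6.83 to 18.9 and at 3.94 to 557 in the HRS legs, and Myog at 6.23 to 14.2 against 12.4 to 16.1. Of the atrophy genes, the ubiquitin ligases Fbxo32 and Trim63 overlapped, at 374 to 680 against 567 to 750 and 273 to 379 against 262 to 360, and the mitophagy gene Bnip3 was at 149 to 191 against 128 to 156 (0.32, SE 0.12). Bnip3 was the only 1 of 15 atrophy genes higher at an unadjusted p below 0.05, against 3.16% of all genes. Without m864, 3 were higher, where 527 of all 16414 genes were. Acot1, a PPARα-dependent thioesterase of fatty acid metabolism, did not overlap, at 0.752 to 3.75 against 0.426 to 0.732 (1.27, SE 0.42, unadjusted p = 0.016), and it can share reads with its near-identical neighbours. It was the only 1 of 18 fatty acid oxidation genes higher at an unadjusted p below 0.05. Without m866, 4 were higher, where 1038 of all 16414 genes were. All 21 aminoacyl-tRNA synthetase genes had intervals inside 2-fold, and the gene of the antigen, Hars, was at 29.2 to 36.3 against 27.9 to 34.1. At an unadjusted p below 0.05, 0 of the 21 were higher with all legs and 3 without m866, where 1038 of all 16414 genes were.

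Of 17 circadian clock genes, 0 were higher and 2 lower at an unadjusted p below 0.05, against 3.16% and 0.762% of all genes. Per1, which is also cAMP-responsive, was at 17.7, 33.9, 29.9, 17.4 and 38.5 in the contralateral legs and 55.7, 55.1, 32.0 and 51.2 in the PBS-only legs (−0.85, SE 0.33), and the repressor Bhlhe40 was at 75.5 to 104 against 92.6 to 140 (−0.39, SE 0.14). Per2, Nr1d1, Dbp and Arntl overlapped, at 3.65 to 6.95 against 3.59 to 6.91, 39.7 to 132 against 64.5 to 97.6, 10.6 to 20.4 against 17.5 to 23.1, and 32.8 to 49.4 against 36.1 to 42.6. The endoplasmic reticulum stress list lay on the other side, with all 13 genes above 0 on the log2 fold change scale, as were 10755 of all 16414 genes. At an unadjusted p below 0.05, 3 were higher, against 3.16% of all genes, and 5 had separate groups, against 2.3%. They were small differences: Xbp1 was at 103 to 135 against 89.1 to 99.0 (0.30, SE 0.12), Atf4 at 169 to 216 against 155 to 167 (0.27, SE 0.11), Sdf2l1 at 5.42 to 6.74 against 3.52 to 5.22 (0.41, SE 0.15), Pdia6 at 50.4 to 61.7 against 42.7 to 50.0, and the chaperone Hspa5 at 254 to 294 against 219 to 245. Pdia6 and Hspa5 had separate groups but did not pass an unadjusted p of 0.05.

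The share of all normalized counts from the mitochondrial genome was lower in the contralateral legs. It was 10.6%, 9.69%, 11.2%, 10.6% and 10.6% in m862 to m866 and 11.3% and 12.8% in m867 and 13.1% and 11.6% in m868. By mouse the means were 10.5% ± 0.549 (SD, n = 5) and 12.2% ± 0.202 (SD, n = 2). The difference was −1.65 percentage points, with an exact permutation p of 0.048 (two-sided, 21 arrangements of the 7 mice), which is the smallest this design allows. The legs of m867 differed by about as much as the groups. All 13 mitochondrially encoded genes had a log2 fold change below 0 (median −0.22), as did 5659 of all 16414 genes. At an unadjusted p below 0.05, 0 of the 13 passed. The median was −0.14 without m866, where 1 gene, mt-Nd4l, was lower at an unadjusted p of 0.037, and −0.14 without m867. The 36 nuclear respiratory chain genes had a median of 0.13 and all had intervals inside 2-fold, among them Ndufb8 at 225 to 325 against 186 to 269. At an unadjusted p below 0.05, 0 of the 36 were higher with all legs, and 17 were higher without the fat-rich leg of m866 (median 0.21), where 1038 of all 16414 genes were.

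Cytosolic ribosomal protein genes were added as a list after the values had been seen, so their count is a description. Of 92 genes, 38 were higher and 0 lower at an unadjusted p below 0.05, against 3.16% and 0.762% of all genes, and 89 had a log2 fold change above 0, with a median of 0.20. Rpl41 was at 98.6 to 130 against 65.9 to 96.6 (0.50, SE 0.11) and Rpl37 at 16.5 to 21.8 against 11.7 to 16.3 (0.49, SE 0.13). Their median transcript length was 1045 bases against 3079 over all genes tested, and log2 fold changes differed with transcript length. Among genes with a mean of at least 2, the 1002 with a longest transcript under 1 kilobase had a median log2 fold change of 0.17, and the 699 with one of over 8 kilobases had −0.02. The median difference of the short genes from their mean over the 9 libraries was 0.18, 0.05, 0.08, 0.13 and −0.07 in the contralateral legs of m862 to m866, −0.16 and 0.04 in the right and left legs of m867, and 0.01 and −0.25 in those of m868, so that the legs of 1 mouse differed by about as much as the groups. With each library's trend on transcript length removed, the ribosomal median was 0.09 and 12 genes were higher and 0 lower at an unadjusted p below 0.05. Of all 16115 genes in that fit, 202 were higher and 206 lower. With GC trends removed instead, the ribosomal median was 0.15, with 22 higher and 0 lower, where 240 of all genes were higher and 260 lower.

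**Figure D5:**
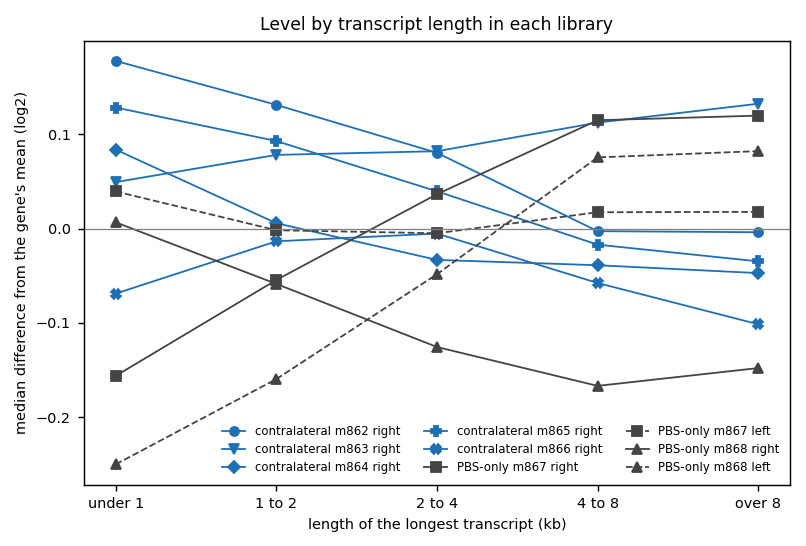
Median log2 difference of genes from their mean over the 9 PBS libraries (y axis) by the length of the longest transcript (x axis, kilobases), with a line for each contralateral leg (blue) and each PBS-only leg (grey, dashed for left legs). In genes under 1 kilobase the right leg of m867 and the left leg of m868 lie lowest, at −0.16 and −0.25, and the opposite legs of the same mice lie at 0.04 and 0.01.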

How the data were processed

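Poly(A) RNA of mouse hamstring was measured in 16 libraries of 9 mice, of which the 9 PBS libraries of 7 mice are compared. The authors deposited normalized counts per gene, treated here as a signal (a linear value that is never negative). The submitters' processing notes name STAR 2.7.8a, limma, mm39 and GRCm39. The counter, annotation and scaling are not given in the sources used here. Gene starts matched GENCODE M21 (GRCm38) for 98.98% of the 25652 genes matched by name, with ends 1 higher, so positions are given in GRCm38 with GENCODE ends. Totals were 958741 to 1252358 in the 9 libraries. In each library 75.7% to 77.5% of the low values fell within 0.02 of a whole number of steps. This share was too low to rebuild counts, so tests for counts were avoided. The step gave an implied depth, a floor of 3 reads and the read numbers printed for genes, all of them estimates.

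Values were tested as log2(value + 0.5), a scale that understates the change of low genes, with limma 3.58.1 (R 4.3.3, eBayes with a mean trend) for the 16414 of 26382 genes whose mean in the 16 libraries reached 0.5. Legs of a PBS-only mouse were averaged first, since the animal is the replicate. Genes were called at a Benjamini-Hochberg adjusted p below 0.05 and a log2 fold change beyond 1, and p-values written as unadjusted are limma's before adjustment. The fit had 5 residual degrees of freedom. It was also run on simulated data, but libraries there were drawn independently, with no effect of the mouse, so no power is read from that run. The mitochondrial share was tested by exact permutation of mice. A list's level is the mean log2 value of its tested members. Genes were named by rule: called genes, the 10 largest differences in each direction (mean of at least 2, unadjusted p below 0.01, no overlap), lead members and the smallest p of each list, and Nr4a2, with further genes named after their values were seen. A single gene that the rule names is not reported here. The groups, the 37 lists and the rules were chosen with earlier results of these data known. Promoters are from RefSeq (GRCm38.p6). Alternatives covered pseudocount, filter, scaling, variance model, voom, legs as replicates, single legs, all groups, each mouse left out, and, after seeing the data, length or GC trends removed and 2 legs left out.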

Additional observations from a re-analysis of the deposited data

Results flagged for a closer look

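A library lay far from the others of its group, by the gap to its neighbour as a share of the range, in 7 of 168 values checked, and chance alone flags about 1 in 20. In the contralateral legs, the mean log2 level of B and plasma cell genes was highest in m864 (0.91, others −0.09 to 0.12), the leg with keratin transcripts, and that of fast fibre genes was lowest in m866 (12.70, others 13.30 to 13.35), the leg with fat transcripts. Also there, Gins2 was lowest in m864 (log2 level 3.80, others 4.13 to 4.23) and the pseudogene Rpl18-ps2 highest in m865 (5.32, others 4.96 to 5.06). In the PBS-only legs, cytokines and their receptors were lowest in the left leg of m867 (2.44, others 2.73 to 2.77), Atf4 was highest in that leg (7.39, others 7.28 to 7.29), and Per1 was lowest in the right leg of m868 (5.02, others 5.69 to 5.81).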

How the results depend on the processing

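Beside the 2 PBS-only mice, depth limits genes with few reads, above all in the right leg of m868. The count of 0 called genes was the same under 25 of 26 alternatives. The exception, all 4 groups with 16 libraries each as a replicate, treats legs of a mouse as separate animals and called 1 gene, Nr4a2 (adjusted p = 0.035 by limma). The 14451 genes with the interval inside 2-fold became 23256 with no filter, which tests 25922 genes, and ran from 11694 to 14963 with 1 mouse left out. The 643 genes at an unadjusted p below 0.05 became 1061 with no filter, 1168 with 9 libraries each as a replicate, 1042 with mouse as a random effect, 1041 with left legs of PBS-only mice only, 424 with 4 groups and averaged legs, 408 with length trends removed, 1640 without m864 and m866 together, and 260 to 1244 with 1 mouse left out (260 without m868, 1244 without m866). The higher and lower split of these counts was 518 and 125, but 319 and 275 by limma-voom, 202 and 206 with length trends removed and 240 and 260 with GC trends removed. The causes were not tested. The difference in mitochondrial share ran from −1.82 to −1.44 percentage points with 1 mouse left out, where exact permutation cannot reach a p under 0.067. For 123 further genes picked by the naming rules or added to them, levels and not fold changes are mostly given. Of these, 60 changed sign under at least 1 of the 23 alternatives not added after the data were seen. Of the 43 genes whose fold change is printed, 5 changed sign: against m867 alone Cxcl9 was 0.30, Cxcl10 0.38, Gbp2 0.94, Isg15 0.92 and Irf7 1.22, and against m868 alone they were −0.96, −1.15, −1.36, −0.15 and −0.25. Of the list medians under alternatives, 964 moved by less than 1 SD of the contralateral legs and 24 by more. No paired analysis was possible because no mouse gave a library to both groups and the shared replicate numbers join unrelated animals.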
